A study of Mus musculus with 24 samples.

Results

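The comparison described here set AMPK KO mouse embryonic fibroblasts (MEFs) against WT MEFs while MTOR was inhibited with torin1. Its members were the 8 libraries titled as torin1 libraries, 4 from each line, out of 24 libraries in the series, and every autosomal gene that could be tested in them. Of 55487 genes in the table, 15828 passed the filter on low counts, and 15265 of those lay on autosomes. The samples are poly(A)-selected mRNA libraries from cultured fibroblasts of both lines, each treated with DMSO (the vehicle), MK-8722 (an allosteric activator of AMPK) or torin1 (an ATP-competitive inhibitor of MTOR).

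The WT line carries both genes for the catalytic α subunit of AMPK, Prkaa1 and Prkaa2, and the KO line lacks them, in the study's description a prkaa1 prkaa2 double knockout. Both lines were provided to the study by another laboratory. Each line is a single line, so the AMPK genotype and the history of the line cannot be told apart in any value below. Passage follows the line as well. The WT libraries came from passages 12 to 15 and the KO libraries from passages 16 to 19, with 1 library of each group per passage. Nothing in the labels says that the 4 libraries of a group were independent cultures beyond that, and the p-values measure only the spread among them. The estimated counts of the 8 torin1 libraries summed to between 27022814 and 33571668.

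AMPK is a kinase that is switched on when cellular energy falls. It restrains anabolic pathways, in part by damping the MTOR complex MTORC1. MTORC1 promotes protein and lipid synthesis and keeps the transcription factors TFEB and TFE3 out of the nucleus, so that its inhibition brings out genes of lysosomes and autophagy. Secretory cells such as fibroblasts also adjust the chaperones of the endoplasmic reticulum (ER) to the load of new protein, through the unfolded protein response and its factors ATF6, XBP1 and ATF4. Because torin1 acts on MTOR itself and not through AMPK, the comparison asks which differences between the lines are present once MTOR is inhibited in both.

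Torin1 left most of the difference between the lines in place. Under torin1, 8366 of 15265 autosomal genes (54.8%) differed between KO and WT, 4798 of them higher in KO (31.4%) and 3568 lower (23.4%). A gene was called where the adjusted p of edgeR's quasi-likelihood test (Benjamini-Hochberg) was under 0.05 and the fold change at least 1.2. The same comparison called 8689 genes (56.9%) with DMSO and 8990 (58.9%) with MK-8722, so that a call was the common outcome in each treatment and a call alone says little about a gene. Under torin1, 1628 of the called genes differed by more than 4-fold, 1165 of them higher in KO. With library size alone as the scaling, which moved the median log2 difference of all genes from 0.04 to 0.15, 67.4% of the called genes were higher in KO in place of 57.4%. The 4 libraries of one line all lay above the 4 of the other for 9491 genes (62.2%).

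Of the 8366 genes called under torin1, 7084 were also called with DMSO in the same direction, which is 84.7% of the torin1 calls and 81.5% of the DMSO calls. The torin1 and DMSO comparisons share no library. Across the 15265 genes the log2 differences of both comparisons had a Pearson correlation of 0.951 and a Spearman correlation of 0.893, given as a description, since genes are not independent replicates and the cells of each line were the same. In 6229 genes the call was made with DMSO, MK-8722 and torin1 alike and in the same direction, 3599 of them higher in KO.

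**Figure D1:**
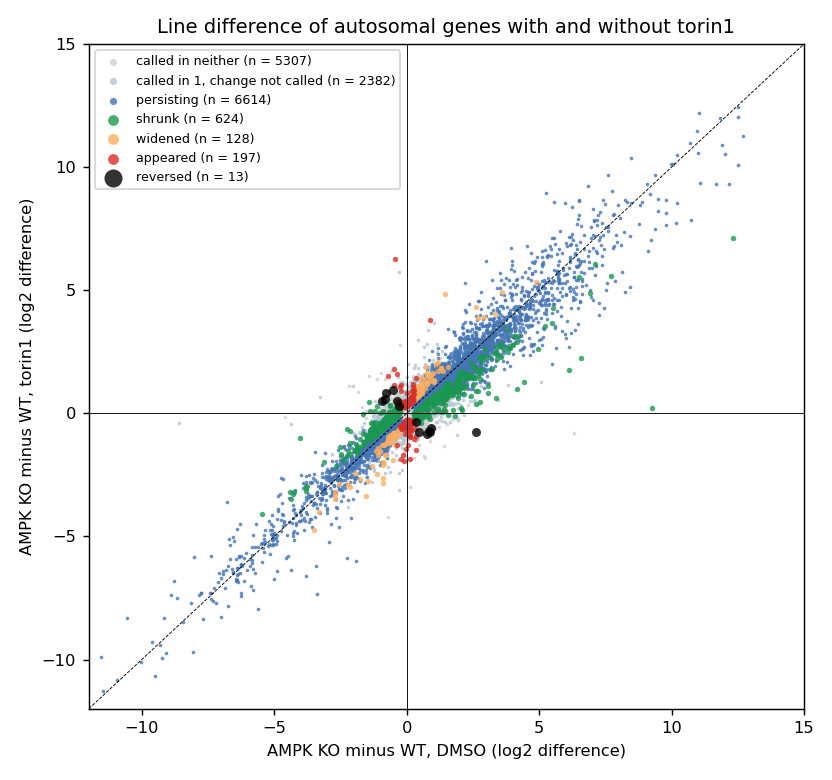
Each point is an autosomal gene, placed by its log2 difference KO minus WT with DMSO (x axis) and under torin1 (y axis) and coloured by its class. Most points follow the diagonal (Pearson r = 0.951 over 15265 genes), and nearly all of the 624 genes whose difference shrank lie between the diagonal and the horizontal axis.

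Whether a difference moved with torin1 was tested directly, as the log2 difference under torin1 minus that with DMSO, each gene's value from 16 libraries inside the fit to all 24. This change in the line difference was called for 1087 genes (7.12%), 635 upward and 452 downward, against 3668 genes at an unadjusted p under 0.05. With passage as a block, which ties the DMSO and torin1 libraries of the same line and passage, 1806 genes were called. The split between upward and downward rested on the scaling of the libraries. The upward share of the calls was 58.4%, 48.2% with DESeq2's size factors, 41.7% with library size alone, and between 26.2% and 63.9% when 1 library was left out.

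The genes fall into classes by these tests. A persisting difference was called in the same direction with DMSO and under torin1 and did not pass the test of change, and 6614 genes (43.3%) were of this kind. Their median absolute log2 difference was 0.88 with DMSO and 0.82 under torin1. The difference shrank in 624 genes (4.09%), from a median of 0.84 to 0.35, and 282 of these were no longer called under torin1. It widened in 128 genes (0.839%), from a median of 0.60 to 1.10. It appeared, called under torin1 and not with DMSO and with a called change, in 197 genes (1.29%), from 0.10 to 0.45. In 13 genes (0.0852%) it reversed. With passage as a block 1031 genes shrank, 263 widened and 300 appeared. A further 2382 genes (15.6%) were called in one of these treatments alone and met the rule of no class above, so that they were not resolved. Another 5307 (34.8%) were called in neither. A called change alone did not place a gene in a class. Eif2ak3 and Pan2, for example, had a called change and were called in neither treatment.

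Smaller differences under torin1 than with DMSO outnumbered larger ones among genes called with MK-8722, whether or not the change was called. The MK-8722 libraries enter neither comparison except through the shared scaling and estimate of spread. In the 8990 genes called with MK-8722, the median absolute log2 difference was 0.68 with DMSO and 0.62 under torin1. The difference was the smaller under torin1 in 61.9% of them. Whether this choice of genes favours one treatment was not tested. Under the 6 alternatives computed for it, the share of 61.9% lay between 59.6% and 62.5%.

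The targeted genes were checked in every torin1 library. Prkaa1, which encodes the α1 subunit, gave 79.7, 71.3, 81.9 and 83.1 CPM (counts scaled to a common library total) in the WT libraries and 82.5, 75.7, 73.6 and 75.1 in the KO libraries. The ranges overlap, and the log2 difference was −0.04 ± 0.05 (SE; n = 4 libraries per line; adjusted p = 0.441, edgeR). Prkaa2, which encodes α2, was read at 4.79, 3.62, 4.46 and 5.21 CPM in WT and at 5.71, 5.13, 4.42 and 4.46 in KO, also overlapping. Counts summed over a whole gene do not separate the deleted part from the rest and leave the genotype unchecked. A neighbour of Prkaa1, Ttc33, was higher in KO under torin1 by 0.77 ± 0.07 on the log2 scale. A neighbour of Prkaa2, the lipid phosphatase gene Plpp3, was lower by 2.58 ± 0.17 (adjusted p = 2.85e-12, edgeR). Both differed in the same direction with DMSO. Genes within 5 Mb of Prkaa1 had a median log2 difference of 0.34 over 31 genes, against 0.51 over the other 612 genes of chromosome 15. Within 5 Mb of Prkaa2 it was 0.03 over 63 genes (17 higher, 11 lower, 35 not called), against 0.115 over the other 919 genes of chromosome 4.

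The strongest persisting differences were genes that one line read and the other did not. Hoxb9, a homeobox gene that marks position along the body axis, was at 49.1, 60.7, 58.2 and 58.3 CPM in the KO torin1 libraries, and the WT libraries held 1 read in all. The ratio was 7030 with a 95% interval from 1260 to 278000 that covers counting error only. Hoxb2 lay between 15.9 and 17.9 CPM in the KO libraries with no read in the WT libraries, which is at least 700-fold higher, taking 3 counts over the 4 WT libraries as the floor. Hoxb6 lay between 16.3 and 17.1 CPM in KO and had no read in WT either, at least 696-fold higher. All 3 are neighbours in the Hoxb cluster on chromosome 11, and an antisense gene overlaps Hoxb2 on the other strand. Gfra2, a receptor for neurturin, was at 24.1, 33.3, 32.4 and 28.6 CPM in KO, with 1 read among the WT libraries.

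In the other direction, Pitx1, a homeobox gene of the hindlimb, was at 63.7, 70.8, 56.5 and 61.3 CPM in the WT torin1 libraries and at most 0.0614 CPM in KO. The fitted ratio was 1830. Sulf1, an extracellular sulfatase that edits heparan sulfate, was at 66.0, 110, 79.1 and 112 CPM in WT and at most 0.184 CPM in KO, a fitted ratio of 966. Slc5a7, the choline transporter, lay between 21.5 and 48.6 CPM in WT and had 2 reads in the KO libraries. No library of either line crossed into the range of the other for these genes. The same genes stood apart with DMSO, where for example Pitx1 had means of 89.0 CPM in WT and 0.00763 CPM in KO.

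**Figure D2:**
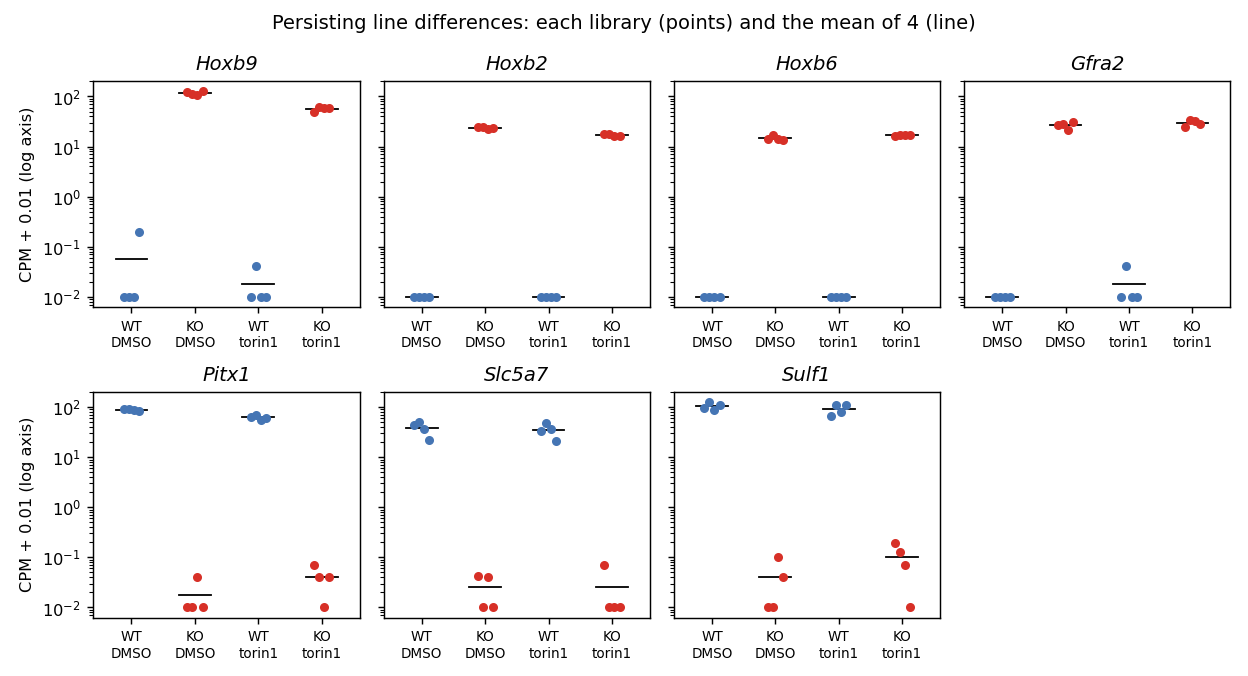
CPM + 0.01 in each DMSO and torin1 library (points, log axis) with the group mean (line) for 7 of the genes with large persisting differences, WT and KO in separate colours. The lines do not overlap for any of these genes in either treatment: Pitx1 lies between 56.5 and 70.8 CPM in the WT torin1 libraries and at most 0.0614 CPM in KO.

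A difference appeared for 197 genes, 121 of them higher in KO and 76 lower. Cebpd, a C/EBP transcription factor, was read at 12.3, 14.3, 10.3 and 7.67 CPM in the WT torin1 libraries and at 4.24, 3.15, 5.14 and 3.88 in KO. Every WT library lay above every KO library, whereas with DMSO both lines averaged 4.08 and 4.06 CPM, so the level with torin1 differed from that with DMSO in WT and hardly in KO. The log2 difference under torin1 was −1.44 ± 0.18 (adjusted p = 1.91e-07, edgeR) and the change −1.44 ± 0.26 (adjusted p = 0.00141). Exons of Cebpd overlap those of Spidr, a gene on the other strand. Itga2, the integrin α2 subunit of a collagen receptor, followed the same order, at 11.2, 12.4, 15.8 and 22.1 CPM in WT and 7.53, 8.07, 8.69 and 6.99 in KO under torin1. Its DMSO means were 1.81 and 1.96 CPM, and it kept the class in 18 of 31 alternative fits. Exosc6, a subunit of the RNA exosome, had the most negative log2 difference of those that appeared by the naming rule (−1.94 ± 0.27), but its exons share bases on the same strand with Aars, an alanyl-tRNA synthetase gene, and its count is uncertain.

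Among the genes whose difference appeared with KO higher, Dock4, an activator of the GTPase Rac, was at 4.10, 5.43, 5.35 and 4.25 CPM in WT and 11.3, 10.9, 10.8 and 11.2 in KO. The lines did not overlap, and the log2 difference was 1.21 ± 0.11 against 0.25 ± 0.11 with DMSO. Sesn2, a sestrin that senses leucine and restrains MTORC1, was at 9.43, 11.2, 8.69 and 8.35 CPM in WT under torin1 and at 19.5, 20.6, 20.9 and 17.7 in KO. Its DMSO means were far higher and closer together, 89.3 CPM in WT and 104 in KO, and the change was 0.84 ± 0.19 (adjusted p = 0.00647, edgeR). Etv5, an ETS factor induced by ERK signalling, was at 25.7, 27.2, 25.1 and 34.1 CPM in WT and at 48.0, 51.6, 48.4 and 48.7 in KO. Its mean in KO was 46.4 CPM with DMSO and 49.2 under torin1, and in WT 46.5 and 28.0.

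A difference widened for 128 genes. Frmd5, a FERM-domain protein of cell junctions, was at 15.7, 13.4, 15.0 and 11.5 CPM in WT under torin1 and at 2.43, 1.41, 1.77 and 2.23 in KO. The WT level stood above its DMSO mean of 4.40 CPM and the KO level near its DMSO mean of 2.35, and the log2 difference went from −0.90 ± 0.18 to −2.83 ± 0.17 (adjusted p of the change 4.88e-05, edgeR). Klf4, a zinc-finger factor and immediate early gene, was at 26.0, 30.8, 25.5 and 36.2 CPM in WT and at 8.20, 7.02, 6.79 and 7.26 in KO. Here it was the KO mean that was lower with torin1 than with DMSO, 7.32 against 17.5 CPM, while the WT means were 29.6 and 31.7. Adra1b, the α1B adrenergic receptor, had means of 12.4 and 3.36 CPM under torin1, a log2 difference of −1.88 after −0.53 with DMSO.

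Of those that widened with KO higher, Apoe, the lipid carrier of lipoproteins, was at 0.508, 1.08, 0.414 and 0.384 CPM in WT and 20.2, 14.6, 23.1 and 15.7 in KO under torin1. Its log2 difference was 4.94 ± 0.23, after 3.59 ± 0.21 with DMSO. Smim3, a small membrane protein gene, had means of 7.91 and 33.2 CPM under torin1 (log2 difference 2.07) and 18.7 and 42.0 with DMSO (1.17). Pik3r3, a regulatory subunit of PI3-kinase, had means of 5.63 and 22.3 CPM, a log2 difference of 1.99 after 1.12, and its exons overlap a predicted gene, so part of its count could belong there. In these 3 genes the WT mean was lower under torin1 than with DMSO, and the KO mean was lower for Smim3 and Pik3r3 and higher for Apoe.

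The classes also held genes whose difference shrank from a large value. Afap1l2, an adaptor of the kinase Src, was at 7.83, 7.27, 8.42 and 5.60 CPM in WT under torin1 and at 41.5, 43.3, 51.9 and 43.6 in KO. The WT mean was 1.38 CPM with DMSO and 7.28 under torin1, the KO mean 42.6 and 45.1, so the gap narrowed from the WT side, from 4.95 ± 0.16 to 2.63 ± 0.13 on the log2 scale. Megf6, an EGF-repeat protein, went from 7.69 to 5.59 on the log2 scale with KO means of 38.6 and 18.7 CPM. Pcdhga10, a clustered protocadherin, went from 12.31 to 7.13 with KO means of 20.7 and 19.7 CPM. The WT libraries held no read of it with DMSO and 0.0591 to 0.286 CPM under torin1, and it shares exons with the other members of its cluster, so both fitted values are uncertain.

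Among the genes lower in KO, Bach2, a transcriptional repressor, was at 23.7, 28.2, 24.3 and 27.9 CPM in WT under torin1 and at 10.8, 9.57, 9.83 and 10.2 in KO. The KO mean was 4.34 CPM with DMSO and 10.1 under torin1, the WT mean 24.6 and 26.0. The log2 difference was −2.50 ± 0.12 and then −1.37 ± 0.11, a change of 1.14 ± 0.16 (adjusted p = 1.04e-04, edgeR). Lmx1b, a LIM homeobox factor of dorsal limb, went from −3.13 to −1.98 with KO means of 3.75 and 6.43 CPM. Tnfaip2, a TNF-induced gene, went from −5.45 to −4.09 with KO means of 1.62 and 2.81 CPM. Of its WT torin1 libraries, replicate 4 stood apart at 60.8 CPM beside 42.0 to 44.7 in the others.

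The 13 reversed genes were few, and only some met the rule for naming. Ddit4, an inhibitor of MTORC1 induced by energy and ER stress, had means of 57.0 CPM in WT and 40.0 in KO with DMSO, and 2.87 and 5.45 under torin1. It was lower in KO with DMSO by 0.51 ± 0.11 and higher under torin1 by 0.93 ± 0.17 (adjusted p = 3.93e-05, edgeR), and the class held in 30 of 31 alternative fits. Rgs3, a GTPase activator for G protein signalling, was at 13.8, 13.7, 12.9 and 12.2 CPM in WT and at 15.8, 15.6, 17.0 and 16.7 in KO, a difference of 0.31 after −0.28. Armc2, an armadillo-repeat gene, went the other way, from 0.34 to −0.37, with means of 6.72 and 5.21 CPM. Rgs3 and Armc2 each kept the class in 17 of 31 fits. The remaining reversed gene named by the rule, Creld2, belongs to the ER genes below.

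**Figure D3:**
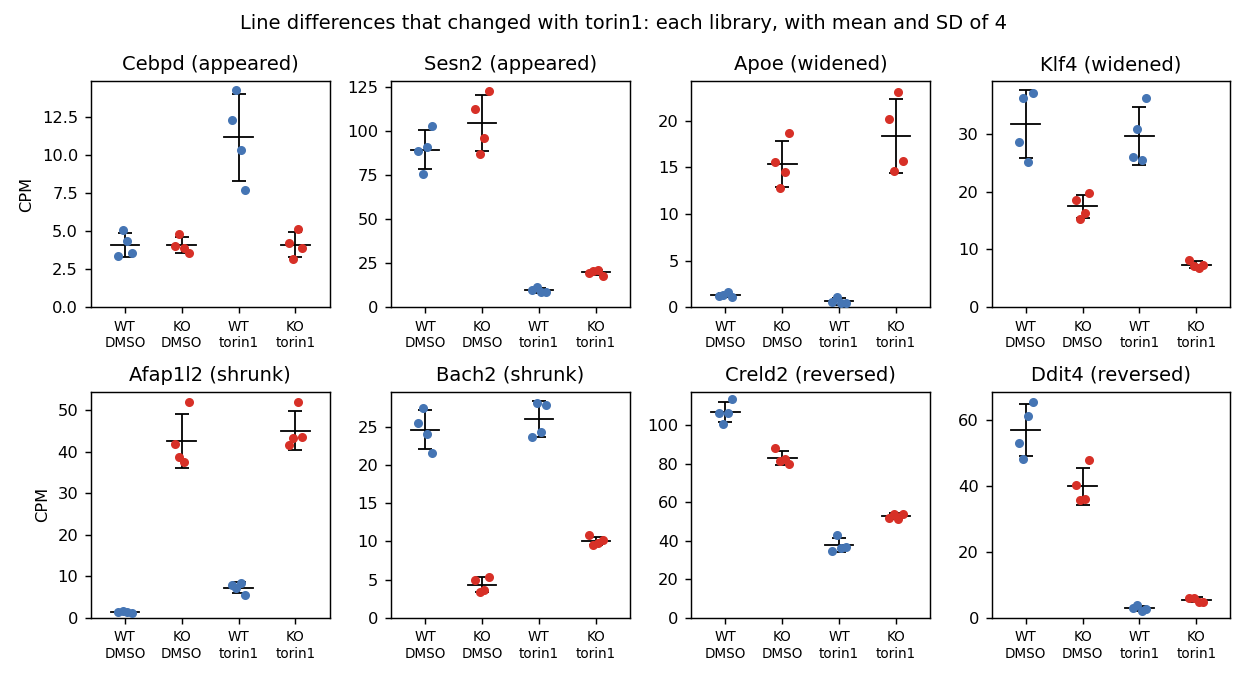
CPM per library (points, linear axis) with the mean and SD of 4 libraries (lines) for genes whose line difference appeared, widened, shrank or reversed, in WT and KO with DMSO and torin1. Cebpd shows the appearing pattern, with means of 4.08 and 4.06 CPM with DMSO and 11.2 and 4.10 CPM under torin1 in WT and KO.

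Genes of protein folding in the ER were often among those with a called upward change. Their list was written after the changed genes had been seen, so it is not independent evidence of its direction. Of 49 tested members, 30 were lower in KO with DMSO and 4 higher, and under torin1 18 were lower and 13 higher. Over all genes, 25.6% were lower and 31.3% higher with DMSO, and 23.4% and 31.4% under torin1. The change was called upward in 24 of the 49 (49%, against 4.16% of all genes tested) and downward in 1, Edem2. The difference shrank in 17 (34.7% against 4.09%), appeared in 5, reversed in 1 and widened in 1. Of the 20 chaperones, 14 were lower and 1 higher with DMSO, 9 lower and 6 higher under torin1, and 8 shrank. Across 31 alternative fits the upward count was 7 when tested against a fold change of 1.2, 8 where a 1.5-fold change was required and between 19 and 30 in the others, and the downward count was between 0 and 2. The median log2 difference of the list was −0.43 with DMSO, −0.44 with MK-8722 and −0.15 under torin1, beside 0.02, 0.03 and 0.04 over all genes.

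Several of these genes share a promoter element, which is shown here because most members that carry it had a called upward change. Most of the 24 ER genes with a called upward change had no match to it, among them Hyou1, Pdia4 and Manf. The ER stress response element (ERSE) binds NF-Y and ATF6 and reads CCAAT, then 9 bases of any kind, then CCACG. On either strand it lay in 39 of 32851 RefSeq promoters (0.119%; 250 bases before to 50 after the start, GRCm38.p6). The stretches below run 5′ to 3′ along the gene's strand, with the fixed letters of the element in capitals, which read CGTGG and ATTGG where the element lies on the opposite strand.
Hspa5, chr2:34772005-34772063, plus strand: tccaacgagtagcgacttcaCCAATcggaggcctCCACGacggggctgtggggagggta
Calr, chr8:84847055-84847113, minus strand: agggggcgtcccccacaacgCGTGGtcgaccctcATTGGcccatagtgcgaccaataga
Dnajc3, chr14:118937807-118937865, plus strand: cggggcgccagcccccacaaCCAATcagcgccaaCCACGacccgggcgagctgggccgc
Creld2, chr15:88819500-88819558, plus strand: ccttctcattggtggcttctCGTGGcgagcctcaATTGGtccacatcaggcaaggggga
Pdia6, chr12:17266471-17266529, plus strand: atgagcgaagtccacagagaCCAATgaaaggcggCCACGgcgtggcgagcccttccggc
Hsp90b1, chr10:86705618-86705676, minus strand: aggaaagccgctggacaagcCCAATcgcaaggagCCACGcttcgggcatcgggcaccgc
Hsp90b1, chr10:86705513-86705571, minus strand: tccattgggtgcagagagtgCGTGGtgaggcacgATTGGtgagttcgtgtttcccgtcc

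The element lay between 47 and 65 bases before the start of Hspa5, between 80 and 98 before Pdia6, and at 2 places before Hsp90b1. Of the genes with the element, 15 were autosomal and tested. Their change was called upward in 10 (66.7%, against 4.16% of all genes) and downward in 0 by edgeR (1 at an unadjusted p under 0.05) and by DESeq2, and the difference shrank in 7 (46.7% against 4.09%). Over 31 alternative fits the upward count was 3 where a 1.5-fold change was required and when tested against a fold change of 1.2, and between 7 and 11 in the others, and the downward count was 0 or 1. The 10 were Hspa5, Calr, Dnajc3, Creld2, Pdia6, Hsp90b1 and Syvn1, which the ER list also holds, and Adcy3, Pan2 and Zfp57, which it does not. The other 5 were Canx, Hnrnpa3, Alg12, Spats2l and Acacb. The element was chosen after these values were seen, and most of the 10 are on the ER list. The shares above are therefore not independent evidence about the element. A match is a description of the letters, and binding was not measured.

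Hspa5 encodes BiP, the main ER chaperone and the usual readout of ER stress. It was read at 1698, 1532, 1800 and 1669 CPM in WT and at 1006, 917, 1014 and 930 CPM in KO with DMSO. Under torin1 the WT libraries gave 376, 521, 391 and 410 CPM and the KO libraries 356, 412, 373 and 381. The lines stood apart with DMSO and overlapped under torin1, both at lower levels. The log2 difference was −0.79 ± 0.08 and then −0.16 ± 0.08 (adjusted p = 0.0735), with a change of 0.64 ± 0.11 (adjusted p = 6.58e-04, edgeR). Calr, the lectin chaperone calreticulin, was at 739, 901, 732 and 771 CPM in WT and 619, 699, 697 and 677 in KO under torin1, after means of 2020 and 1179 with DMSO. Its change was 0.55 ± 0.09.

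Other chaperones kept part of their difference. Hsp90b1, the ER form of HSP90, was at 953, 1092, 1018 and 1110 CPM in WT and at 602, 618, 613 and 629 in KO under torin1, still apart, and its log2 difference went from −1.23 to −0.76. Dnajc3, a co-chaperone of BiP that inhibits the kinase PERK, was at 63.6, 67.1, 71.0 and 70.4 CPM in WT and 48.2, 45.3, 47.9 and 47.7 in KO, after means of 168 and 73.7 with DMSO. Pdia6, a disulfide isomerase, went from −1.34 to −0.82. Hyou1, a nucleotide exchange factor for BiP, went from −0.95 to −0.35, and the secreted factor Manf from −1.01 to −0.46. Hspa5, Dnajc3, Hyou1, Edem1 and Pdia4 kept the shrunk class in all 31 alternative fits.

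In the 5 members whose difference appeared, the KO level was the higher under torin1. Some other members were called in neither treatment, such as Dnajc10 at −0.06 and Derl2 at −0.14. Dnajb11, a BiP co-chaperone, had means of 123 CPM in WT and 121 in KO with DMSO and 45.8 and 62.5 under torin1, a log2 difference of 0.45 ± 0.05. Fkbp2, a prolyl isomerase, had 60.7 and 58.5 CPM and then 39.1 and 54.7. Syvn1, the ubiquitin ligase of ER-associated degradation, and Edem3, which trims mannose from misfolded glycoproteins, had log2 differences of 0.41 and 0.49 under torin1 after −0.03 and 0.04. Creld2, a secreted ER stress protein, crossed over. It was at 106, 101, 106 and 113 CPM in WT and 88.1, 81.5, 82.2 and 79.5 in KO with DMSO, and at 34.6, 43.1, 36.2 and 36.8 and then 51.7, 54.0, 51.3 and 53.9 under torin1. No library overlapped between lines in either treatment, and the order of the lines was opposite, with a change of 0.85 ± 0.08 (adjusted p = 8.58e-07, edgeR).

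The mean CPM of 47 of the 49 genes in WT and of 39 in KO was lower under torin1 than with DMSO. Most of the narrowing thus took place at lower levels in both lines. Over all 15265 genes, the mean was lower under torin1 for 7124 genes in WT and 6789 in KO. Of 11 disulfide isomerases and oxidases, 10 were lower in KO with DMSO and 7 under torin1, where 25.6% and 23.4% of all genes were. Under torin1, 0 were called higher by edgeR (0 also at an unadjusted p under 0.05). Of 8 sensors and factors, the change was called in 1. This was Eif2ak3, which encodes PERK, not called in either treatment, at −0.23 with DMSO and 0.10 under torin1 (adjusted p of the change 0.0177, edgeR). Xbp1, the factor spliced by IRE1, stayed lower in KO, at 30.1, 39.6, 28.4 and 30.6 CPM in WT and 12.6, 14.8, 13.7 and 12.1 in KO under torin1, with log2 differences of −0.95 with DMSO and −1.27 under torin1. Its change of −0.32 was not called (adjusted p = 0.11, edgeR), although with passage as a block the adjusted p was 0.046, and the difference was of the widened class there and without WT torin1 replicate 3 or KO torin1 replicate 2. The sensor genes Atf6 and Ern1 stayed higher in KO, at 0.54 and 0.60 under torin1. Gene counts do not separate the spliced form of Xbp1.

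**Figure D4:**
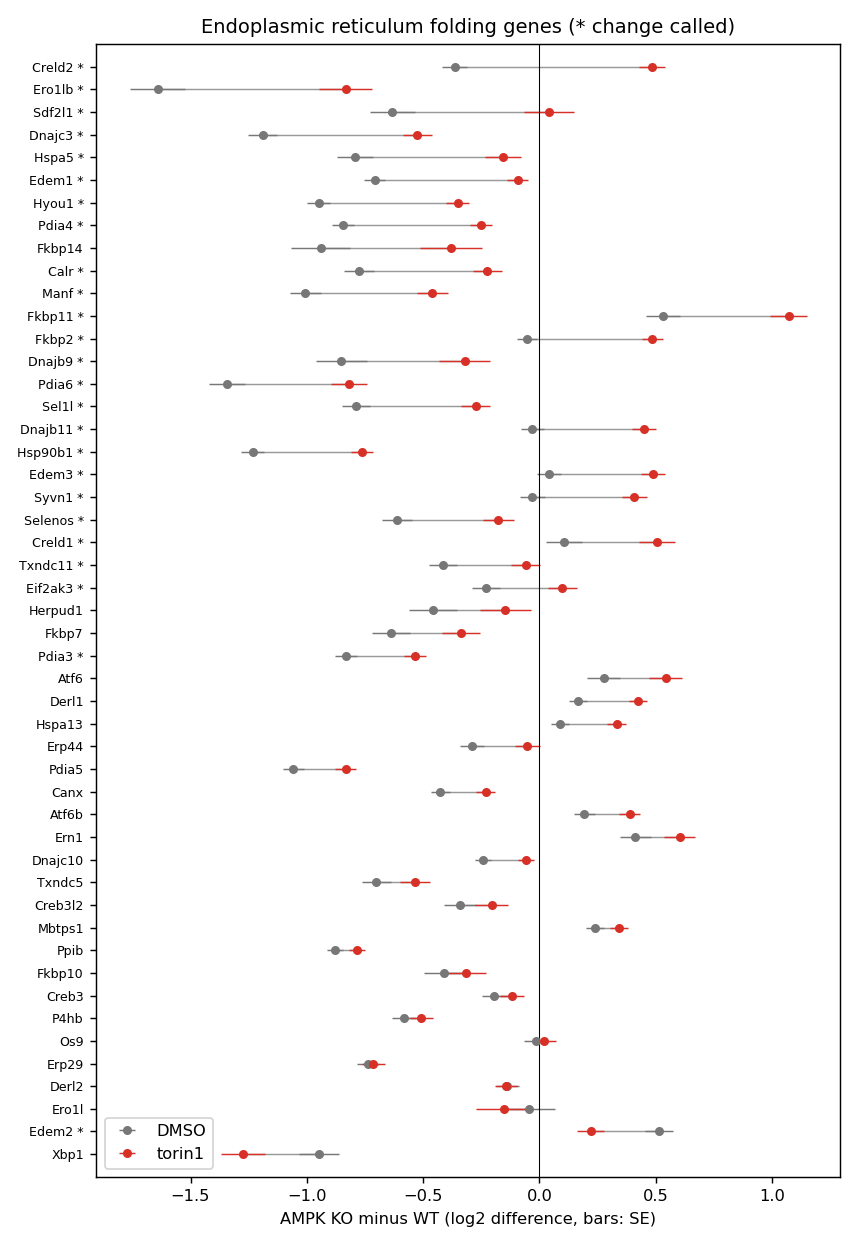
Log2 difference KO minus WT with DMSO and under torin1 for the 49 ER folding genes tested, each gene's values joined by a line, with bars for the SE and an asterisk where the change was called, ordered by the size of the change. Most chaperones lie below 0 with DMSO and nearer to 0 or above it under torin1, as for Hspa5 at −0.79 and −0.16 and Creld2 at −0.36 and 0.48.

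Of 37 tested genes of the MTOR pathway, on which the drug acts, 8 were higher in KO under torin1, 8 lower and 21 not called, so that 43.2% were called against 54.8% of all genes. The change was called for 6 upward and 2 downward, where 7.12% of all genes were called, and for a single gene when tested against a fold change of 1.2. The list had a median of 0.02 that took either sign under other scalings. Deptor, an inhibitor bound to MTOR, was lower in KO with means of 16.8 and 33.5 CPM, a log2 difference of −0.99 ± 0.10 after −1.51 with DMSO, in the shrunk class in 22 of 31 fits. Ddit4l, a relative of Ddit4, was lower by 1.27. Rragd, a Rag GTPase that recruits MTORC1 to lysosomes and a TFEB target, was higher in KO at 2.73 ± 0.20, after 3.86 with DMSO. Of 13 genes for AMPK and LKB1 subunits and partners, 6 were lower in KO (46.2%, against 23.4% of all genes), among them Cab39l (−0.76) and Camkk2 (−0.36). A single gene was higher (7.69%, against 31.4%), Prkag1, the γ1 subunit (0.34), whose exons overlap another gene.

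Lysosomal genes and TFEB targets were about as often higher as lower in KO under torin1, with 11 higher, 13 lower and 24 not called of 48. The shares higher and lower were 22.9% and 27.1%, beside 31.4% and 23.4% of all genes. The median was −0.04 under torin1 and −0.08 with DMSO, both of which took either sign with scaling, and −0.82 with MK-8722. Flcn, which encodes folliculin and regulates the Rag GTPases, was at 49.2, 45.0, 50.0 and 51.8 CPM in WT and 62.2, 42.7, 53.8 and 49.4 in KO under torin1. Hexa, a lysosomal hexosaminidase, was at 57.5, 56.5, 59.7 and 64.0 CPM in WT and 66.4, 45.8, 67.3 and 59.2 in KO. Ctsa, a lysosomal carboxypeptidase, was at 170, 172, 169 and 183 CPM in WT and 205, 162, 202 and 181 in KO. The lines overlapped for each of these genes. The log2 differences were 0.09 ± 0.08, 0.01 ± 0.08 and 0.11 ± 0.06 for Flcn, Hexa and Ctsa, none of them called, with 95% intervals from −0.07 to 0.24, from −0.17 to 0.18 and from −0.01 to 0.24. These intervals do not show the lines to be equal. With MK-8722 the same genes were lower in KO by 1.32, 1.26 and 0.94. The difference between the torin1 and MK-8722 comparisons was not tested.

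Fnip1, the folliculin partner, had a log2 difference of 0.14 ± 0.11 under torin1 after −0.36 with DMSO, and its shrunk class held in only 10 of 31 fits. Tfeb itself was at 11.3, 11.2, 9.75 and 8.70 CPM in WT and 8.63, 9.18, 9.74 and 9.13 in KO under torin1, overlapping, after means of 9.85 and 12.6 with DMSO. Its difference shrank from 0.36 ± 0.10 to −0.16 ± 0.10 (adjusted p of the change 0.0178, edgeR) and kept that class in 25 of 31 fits. Mitf, its relative, was not called, at −0.15 ± 0.16. At the far end of the list, Ctsz, a cathepsin, had means of 80.7 CPM in WT and 0.69 in KO, and Ctsf, another cathepsin, 3.79 and 24.6. Gpnmb, a glycoprotein of lysosomes and melanosomes, had means of 4.40 and 0.842 CPM with DMSO and 40.8 and 16.0 under torin1, lower in KO in both.

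Stress and growth programmes differed in how they split. Over all genes, 31.4% were higher and 23.4% lower in KO under torin1, and 31.3% and 25.6% with DMSO. Of 39 ATF4 targets, 14 were higher in KO under torin1 (35.9%) and 7 lower (17.9%), against 7 and 9 with DMSO. The numbers higher were 14 under torin1 and 16 with DMSO without the earliest passages, and 4 and 1 at a fold change of at least 1.5, so the difference between these counts is not firm. Slc1a5, a glutamine transporter, was lower in KO at −1.42 ± 0.20, and Ddit3, which encodes CHOP, at −0.74 ± 0.19. Of 26 genes of sterol synthesis and uptake, 9 were lower in KO under torin1 (34.6%) and 3 higher (11.5%), after 17 and 3 with DMSO. Yet the change was called for 0 of them by edgeR (1 at an unadjusted p under 0.05) and for 0 by DESeq2, and for up to 5 upward in another alternative fit. Idi1, an isomerase of the mevalonate pathway, stayed lower at −1.04 ± 0.25, and the cholesterol exporters Abca1 and Abcg1 stayed higher at 1.01 and 6.67. Of 35 immediate early and ERK feedback genes, 13 were lower (37.1%) and 9 higher (25.7%) under torin1, after 22 and 4 with DMSO. The change was called upward in 7 and downward in 2, where 4.16% and 2.96% of all genes were. Dusp4, an ERK phosphatase, persisted at 3.43 ± 0.19, and Nr4a2, an orphan nuclear receptor, at −1.39 ± 0.13.

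Of 40 DNA replication and mitosis genes, 16 were higher in KO under torin1 (40%, against 31.4% of all genes). Only Rrm2 was lower (2.5%, against 23.4%). With DMSO the counts were 16 higher and 1 lower, but not all of the same genes were called. Of the 40, 8 persisted, 4 appeared, 2 shrank and 1 widened. The change was called upward in 7 and downward in 2, where 4.16% and 2.96% of all genes were. Over 31 alternative fits the upward count lay between 0 and 8 and the downward count between 0 and 5. Cdc45, a helicase component, had means of 55.0 and 92.7 CPM, a log2 difference of 0.75 ± 0.04, and Ccne1, cyclin E1, 10.2 and 24.5 CPM. Among 38 NRF2 and glutathione genes, 17 were higher (44.7%), such as the carbonyl reductase Cbr3 (2.85). Another 6 were lower (15.8%), such as the glutathione transferase Mgst3 (−1.93) and the transketolase Tkt (−0.84). Of 30 FOXO and insulin feedback genes, 16 were lower (53.3%) and 7 higher (23.3%). Among the lower were Trib2, a pseudokinase, at −2.82 and the growth factor Igf1 at −2.57. Of 28 p53 and senescence genes, 10 were lower (35.7%) and 7 higher (25%) under torin1, after 14 and 5 with DMSO. The change was called upward in 7 (4.16% of all genes were) and downward in 0 by edgeR. Over the alternative fits these counts lay between 0 and 9 and between 0 and 3. Among the 28 were Perp, a desmosomal p53 target, at −4.15 under torin1 and Btg2, an antiproliferative gene, at 1.17. Glycolysis was evenly split at 7 and 7 of 23 (30.4% each), with the kinase gene Pdk1 at −1.16 and the phosphofructokinase gene Pfkm at 0.91.

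Collagens and matrix genes were lower in KO under torin1 in 27 of 42 (64.3%, against 23.4% of all genes) and higher in 7 (16.7%, against 31.4%). Their median was −1.01 under torin1 beside −0.95 with DMSO. Col1a2, a chain of type I collagen, had means of 1392 ± 580 CPM (SD, n = 4) in WT and 13.0 ± 4.5 in KO, and the gelatinase Mmp2 258 and 3.28. Col7a1, of anchoring fibrils, and the matricellular gene Thbs2 went the other way, at 27.0 and 234 CPM and at 3.32 and 43.0 CPM. Positional identity genes were called in 50 of 56, 30 lower (53.6%) and 20 higher (35.7%), and Meox2 was at 4.50 CPM in WT with no read in KO. Imprinted genes were lower in 13 of 23 (56.5%) and higher in 8 (34.8%). Airn and Rian were near 0 in KO, at 0.00768 and 0.183 CPM, and Mest and Nnat near 0 in WT, at 0.054 CPM each. Mest lies opposite another gene's exons.

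Interferon and antigen presentation genes were higher in KO in 24 of 38 (63.2%, against 31.4% of all genes) and lower in 7 (18.4%, against 23.4%). Nlrc5, the activator of MHC class I genes, had means of 1.05 and 30.3 CPM, and Psmb8, an immunoproteasome subunit, 1.60 and 48.7. Ifi44 and Oas1a, both interferon-induced, were lower at −3.36 and −4.34. Chemokines, cytokines and growth factors were split 17 and 17 of 39 (43.6% each). Fgf7 and Fgf10, fibroblast growth factors for epithelium, were at −6.69 and −5.75 and the prostaglandin synthase Ptges at 8.55. Contractile genes were lower in 9 of 23 (39.1%) and higher in 7 (30.4%), after 12 and 5 with DMSO. Their change was called upward in 3 and downward in 1, with 4 of the shrunk class. Tagln, a marker of smooth muscle, was at 740 and 19.4 CPM, although its exons lie opposite other genes, and the light chain gene Myl9 at 17.5 and 49.6.

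**Figure D5:**
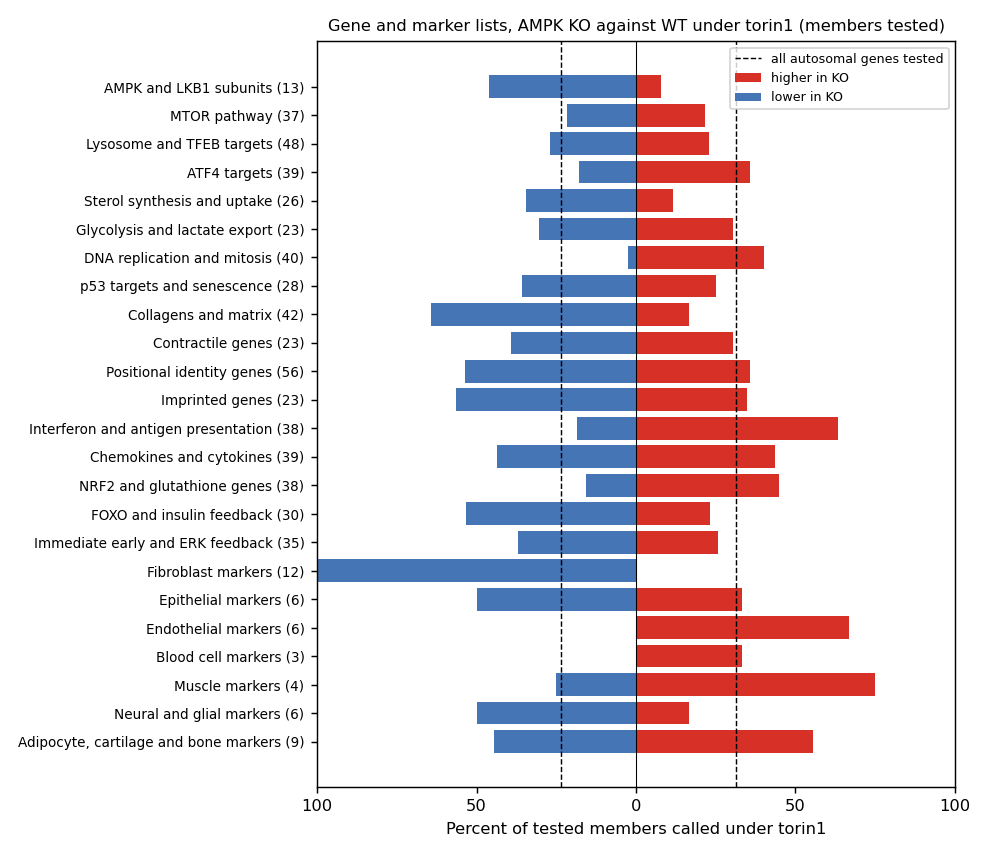
Share of tested genes called higher (right) and lower (left) in KO under torin1 in each gene list, with the share over all 15265 autosomal genes (31.4% higher and 23.4% lower) as reference. Fibroblast markers and collagens and matrix lean to lower in KO, and interferon and antigen presentation to higher.

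Markers of fibroblasts and of other cell types were read in the same libraries. Over all genes, 31.4% were called higher in KO under torin1 and 23.4% lower. All 12 tested fibroblast markers of 15 listed were lower in KO under torin1, whereas with DMSO 11 were lower and 1 higher, so that 1 was of the reversed class. Fibroblast markers summed to 14540 to 18170 CPM in the WT libraries and 6698 to 7333 in the KO libraries, with Lum at 0. Col3a1, a fibrillar collagen, had means of 79.4 and 6.01 CPM. Muscle markers summed to 6.27 to 8.35 CPM in WT and 33.2 to 38.9 in KO, with 3 of 4 tested higher and 1 lower. The higher ones were led by the troponins Tnnt1 and Tnnt2 (5.43 and 2.78), while the defining factors Myod1 and Myog were at 0. Endothelial markers summed to 31.2 to 38.2 and 48.6 to 52.3 CPM, with 4 of 6 higher and Sox17 and Cldn5 at 0. Epithelial markers summed to 46.8 to 63.8 and 17.9 to 27.4 CPM, with 2 of 6 higher and 3 lower. Blood cell markers summed to 4.23 to 4.90 and 4.38 to 5.07 CPM, with Adgre1, Tyrobp and the globins at 0. Neural and glial markers summed to 725 to 897 and 626 to 780 CPM, with 1 of 6 tested higher and 3 lower. Sox2, a factor of stem and neural cells, was higher in KO at 7.74 while Stmn2 was lower at −9.30. Markers of fat, cartilage and bone summed to 74.4 to 87.4 and 45.2 to 49.7 CPM, with Ibsp at 0, 5 of 9 higher and 4 lower. In bulk libraries fewer cells of a type and less RNA per cell cannot be told apart, and the part of cell identity in the values above was not tested.

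The direction of the line difference depended on the chromosome. On chromosomes 15, 19 and 16 the median log2 difference under torin1 was 0.50, 0.42 and 0.35, and 87.6%, 88.8% and 86% of the called genes were higher in KO. On chromosomes 14, 9, 18 and 13 it was −0.32, −0.29, −0.29 and −0.26, and on chromosomes 14 and 9 only 24.3% and 25.2% of the called genes were higher. The medians of chromosome 15 with DMSO and MK-8722 were 0.49 and 0.48, and those of chromosome 14 −0.39 and −0.35. Chromosome 7 had a median of 0.162 under torin1, but the genes in chr7:20000001-30000000 had 0.814, with 124 of 147 higher and 2 lower. Their medians with DMSO and MK-8722 were 0.768 and 0.793. In chr7:30000001-40000000 the torin1 median was 0.673, with 66 of 90 higher and 3 lower. The change with torin1 was called for between 5.25% and 9.39% of the genes of each chromosome. Copy number was not measured, and its part in these values was not tested.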

How the data were processed

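Poly(A) RNA of WT and AMPK KO MEFs was sequenced with paired ends and molecular identifiers by the authors, aligned to GRCm38 with STAR and quantified with Salmon. The authors also deposited TPM and effective lengths per transcript, used here for the alternative with gene lengths. The deposited gene values are estimated counts per gene, unnormalized, and were rounded here. Groups came from the sample titles. Counts were filtered with filterByExpr, scaled by TMM and fitted over 24 libraries and 6 group means with edgeR 4.0.16 (quasi-likelihood test, R 4.3.3), and p-values were adjusted over all 15828 genes. CPM uses the TMM-scaled library totals, so it is not per length. The call rule (0.05 for the adjusted p, 1.2 for the fold) follows the study's methods. The torin1 comparison, the DMSO comparison and their difference were fitted together. Interval and floor values cover counting error only. Several named genes have exons that overlap those of a gene on the other strand, among them Cebpd, Ctsa, Hexa, Bach2, Cab39l and Cdc45.

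Members and gene lists were chosen with earlier results of these data known. The ER folding list and the promoter motifs were chosen after the values here were seen. Named genes were the targeted genes and their neighbours, the genes the study measured by RT-qPCR, Tfeb and Mitf, the protein-coding genes of at least 5 CPM with the largest difference or change in each class and direction, and up to 2 called genes each way per list. Some genes that these rules or lists would name are not reported here. Promoter sequences are from RefSeq (GRCm38.p6). The fit was tested on simulated data. Same-numbered WT and KO torin1 libraries deviated from their group means with correlations from −0.01 to 0.11, so the numbers only name libraries. Alternatives covered scaling (with DESeq2 1.42.0 as another test), filters, thresholds, effective gene lengths, blocks and each library left out.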

Additional observations from a re-analysis of the deposited data

Results flagged for a closer look

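The change in the line difference with torin1 was called for 53 of the 164 named and ER folding genes by the direct test (edgeR, adjusted p under 0.05). Over all autosomal genes 7.12% were called. Genes named for the appeared, shrunk and widened classes had a called change by definition, and the ER list was written after the changes were seen. The count of 53 is therefore no result about these genes. Of the 53 genes, 25 are given here, the genes named for the largest changes and, chosen after their values were seen, Ddit4, Hspa5, Calr and Dnajc3. Relative to DMSO, the log2 difference KO minus WT moved upward by 1.44 in Ddit4, 1.36 in Tnfaip2, 1.35 in Apoe, 1.15 in Lmx1b, 1.14 in Bach2, 0.95 in Dock4, 0.90 in Smim3, 0.87 in Pik3r3, 0.85 in Creld2, 0.84 in Sesn2, 0.82 in Etv5, 0.67 in Dnajc3, 0.64 in Hspa5, 0.59 in Rgs3 and 0.55 in Calr. It moved by −5.18 in Pcdhga10, −2.32 in Afap1l2, −2.11 in Megf6, −1.93 in Frmd5, −1.83 in Exosc6, −1.44 in Cebpd, −1.35 in Adra1b, −1.16 in Klf4, −1.09 in Itga2 and −0.71 in Armc2. With 4 libraries per group these values rest on 16 libraries each.

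In 9 of the 176 groups of 4 torin1 libraries that were checked, a single library stood apart from the other 3 (Dixon's test, which flags about 1 in 20 groups by chance). Among WT libraries, replicate 2 held Btg2 at 6.82 CPM beside 4.82 to 5.15 and Nlrc5 at 0.603 beside 1.18 to 1.23. Replicate 4 held Tnfaip2 at 60.8 beside 42.0 to 44.7 and Cd14 at 1.82 beside 1.34 to 1.40. Replicate 1 held Idi1 at 23.6 beside 27.5 to 27.9 and Tnnt2 at 2.68 beside 4.28 to 4.54, and replicate 3 held Cdc45 at 56.1 beside 54.6 to 54.8. Among KO libraries, Deptor was at 17.9 in replicate 1 beside 16.5 to 16.6 and Exosc6 at 3.45 in replicate 2 beside 1.74 to 1.94. For Deptor and Cdc45 the gap was small against the difference between the lines.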

How the results depend on the processing

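The count of genes called under torin1 and with DMSO stayed within 1.5 times its value under every alternative but a fold change of at least 1.5, which gave 5138 under torin1 (1870 lower) and 5348 with DMSO, with 296 changed (101 upward, 195 downward), 4211 persisting, 189 shrunk, 34 widened, 46 appeared and 6 reversed. The direction of the changed genes was less stable. Upward changes numbered 403 with library size alone, 374 with at least 10 counts in every library (679 downward), 294 with the compared libraries alone (817 downward), 398 without the earliest passages (906 downward, 22 reversed) and 395 with a trend on GC content and length removed, an alternative chosen after seeing the data. With the adjusted p alone there were 977 upward, 247 widened and 84 reversed. Tested against a fold change of 1.2, 97 changed (49 upward, 48 downward), with 59 shrunk, 11 widened, 21 appeared and 4 reversed. Passage as a block gave 1806 changed (858 downward), 1031 shrunk, 263 widened and 300 appeared.

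Leaving out 1 library at a time, 8308 to 8581 genes were called under torin1 (4201 to 4735 higher, 3587 to 4342 lower), 8581 to 8759 with DMSO and 834 to 1288 as changed (220 to 755 upward, 330 to 781 downward), with 6518 to 6853 persisting, 471 to 781 shrunk, 85 to 148 widened, 162 to 220 appeared and 10 to 18 reversed. The upward share of the changed genes was 26.4% and 26.5% without WT torin1 replicates 1 and 3, 27.5% and 26.8% without KO torin1 replicates 2 and 4, and 28.4% and 26.2% without KO DMSO replicates 3 and 4, and between 53.6% and 63.9% without any other library. In those 6 fits, and in none of the other 10, TMM took an MK-8722 library of the KO line as its reference, where the fit to all libraries took one of the WT line.

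The replicate number as a block gave 8358 genes under torin1 (4794 higher, 3564 lower), 8674 with DMSO and 1060 changed (630 upward, 430 downward), with 6611 persisting, 602 shrunk, 126 widened, 190 appeared and 15 reversed. Of 3234 values of named genes under the alternatives, 3140 kept direction and side of the threshold, 36 fell short of it, 57 came past it and 1 reversed, Os9 at −0.15 with the GC trend removed, which was not called in the reported fit.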

Other observations

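Some genes that mark other cell types differed between the lines under torin1. Vwf, the endothelial clotting factor gene, had means of 0.087 CPM in WT and 1.29 in KO under torin1, and 0.0867 and 0.164 with DMSO, so that its difference appeared with torin1 (log2 difference 3.81 ± 0.38, change 2.91 ± 0.73, adjusted p = 0.0135, edgeR). Another endothelial gene, the cadherin Cdh5, persisted at 2.36 ± 0.52 at levels of 0.0482 and 0.265 CPM. Among epithelial keratins, Krt19 had means of 50.0 and 16.0 CPM and Krt18 0.963 and 0.22, both lower in KO, while Epcam was higher at 1.23 and 3.43 CPM. Sox9, a cartilage factor, was lower in KO at 9.24 and 1.14 CPM and Cebpa, a factor of fat cells, higher at 0.843 and 5.63 CPM. The cell cycle inhibitor Cdkn2b was at 39.3 and 17.0 CPM, a log2 difference of −1.21 ± 0.10 after −0.95 with DMSO.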
